A study of Mus musculus with 8 samples.

Results

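The effect of adding 2i to mouse embryonic stem cells (ESCs) that stayed on feeders in serum was measured by comparing all samples labelled as serum with feeder and 2i (F2i) with all samples labelled as serum with feeder (F). This took 4 of the 8 RNA-seq samples of the series, with 2 replicates in each group, and every gene in the deposited lists was a candidate. All samples came from N33, 1 ESC line of the C57BL/6 strain. Both groups were grown on feeders, which are mouse embryonic fibroblasts treated with mitomycin C so that they no longer divide, in knockout DMEM with 20% fetal bovine serum and LIF at 1000 U/ml. The F2i cultures also received 2i, the GSK3 inhibitor CHIR99021 and the MEK inhibitor PD0325901. The labels give 3 µM CHIR99021 and 1 µM PD0325901 for the culture in N2B27 medium and state no separate dose for F2i. For quantitative PCR, the paper describes taking ESCs off the feeders by differing adherence, a step done 2 times. Its RNA-seq methods state only that ESCs were harvested before RNA was extracted. The other 4 samples were ESCs on gelatin in serum without feeders (−F) and ESCs in N2B27 with 2i, without feeders or serum (NB2i), both with LIF; they share the fit and its estimate of the spread, and their levels are set beside those of F and F2i for some genes.

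PD0325901 blocks MEK, the kinase that activates ERK, through which FGF4 made by the ESCs themselves pushes them towards lineage commitment. CHIR99021 blocks GSK3, the kinase that marks β-catenin for destruction, so that β-catenin builds up and relieves repression of pluripotency genes by Tcf7l1. With LIF, the pair is known for holding ESCs in a naive state that resembles the epiblast of the blastocyst.

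Total expected counts lay between 20129641 and 20664488 over the 8 samples, and replicates of F and of F2i differed by more than counting noise (chi-square per degree of freedom 2.301 and 2.083), so every sample was kept as a replicate. Of 20278 genes in the files, 15287 had enough counts to be tested. A gene was called when edgeR's quasi-likelihood test gave a Benjamini-Hochberg adjusted p under 0.05 and the fold change was at least 2; "rose" and "fell" are used for such genes alone. By this rule 985 genes rose with 2i, 6.44% of those tested, and 1070 genes fell, 7.00%, which together make 13.4%. At least 4-fold changes were found for 237 genes that rose and 327 that fell. The FPKM ranges of F and F2i did not overlap for 980 of the genes that rose and 1064 of those that fell. The same samples had set the calls, so this separation adds no further support. At any fold, adjusted p under 0.05 was reached by 4179 genes that were higher (27.3%) and 4192 that were lower (27.4%), and the median log2 fold change of all genes tested was −0.0028. With a biological coefficient of variation of 3.254%, small differences pass the test, and the p-values rest on the model, because the smallest exact permutation p for 2 samples in each group is 0.3333.

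**Figure D1:**
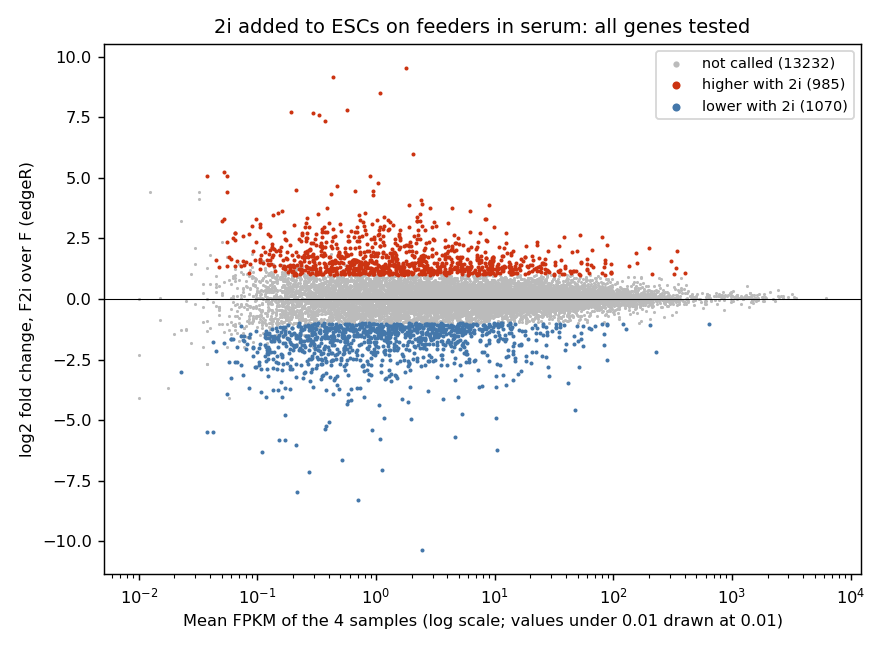
Log2 fold change of F2i over F (edgeR) against the mean FPKM of the 4 samples on a log axis, 1 point for each of the 15287 genes tested. Red points are the 985 genes that rose, blue points the 1070 that fell and grey points the genes not called; changes in both directions are seen from low to high FPKM.

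Markers of fibroblasts, the feeder cell type, moved with the groups and are given first. Summed over 20 marker genes, FPKM was 256 and 269 in the F samples and 720 and 700 in the F2i samples, against 24.2 and 23.6 in −F and 7.03 and 6.04 in NB2i. Both F2i samples were therefore above both F samples, and all 4 were above every feeder-free sample. Of the 20 markers 9 rose and none fell, with a median log2 fold change of 0.86. The collagen gene Col1a1 had an FPKM of 66.0 and 69.6 in F and 248 and 239 in F2i (log2 fold change 1.88 ± 0.04 (SE, n = 2 per group)). Col1a2, Col3a1, Col5a1, Col5a2, the matrix protein gene Postn, the fibrillin gene Fbn1, Thbs2 and the collagen cross-linking enzyme Lox also rose, Lox from 18.8 and 21.1 to 79.9 and 76.3 (1.98 ± 0.05). The markers were not raised evenly. The proteoglycan genes Dcn (3.95 and 3.54 in F, 4.46 and 3.67 in F2i, adjusted p = 0.45) and Lum (0.62 and 0.61 against 0.79 and 0.95, adjusted p = 0.124) did not pass the test; their means in the feeder-free groups were 0.04 FPKM or less. Prrx1, a mesenchymal transcription factor gene, was higher by less than 2-fold (0.84 ± 0.09), as was the receptor Pdgfrb (0.72 ± 0.10). In bulk RNA a change in the number of cells of a type and a change in RNA per cell cannot be told apart. Of the 985 genes that rose, 284 (28.8%) stayed under 0.5 FPKM in all 4 feeder-free samples. Of the 1070 that fell, 183 did (17.1%). For comparison, 13643 of all 15287 genes tested reached 0.5 FPKM in at least 1 feeder-free sample. The part of feeder RNA in the results below was not tested, and levels in −F and NB2i are given beside some of them.

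**Figure D2:**
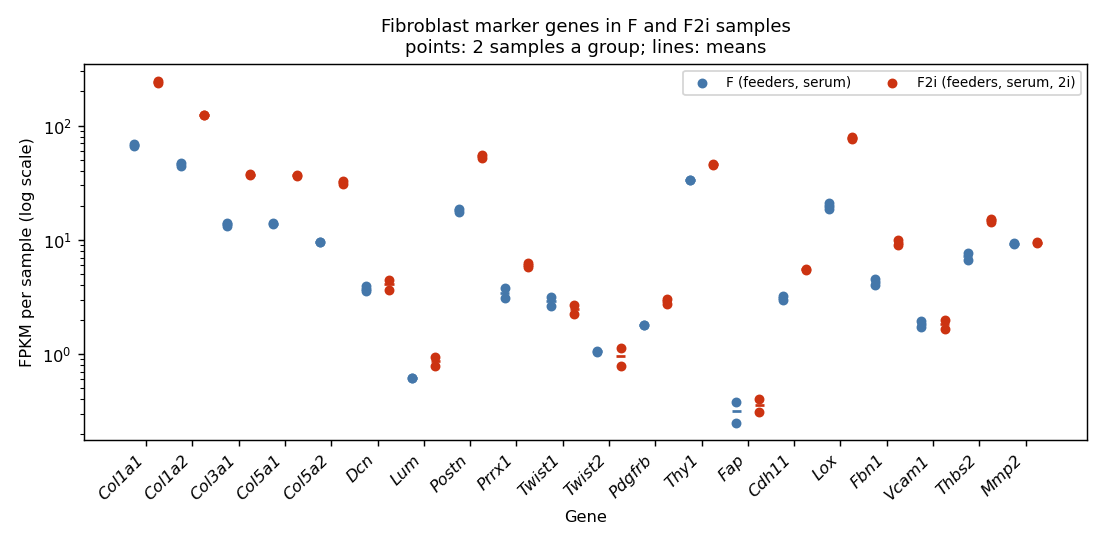
FPKM on a log axis of 20 fibroblast marker genes in the 2 F samples (blue) and the 2 F2i samples (red), with lines at the group means. Points for the collagens, Postn and Lox sit higher in F2i, whereas Dcn, Twist1, Twist2, Vcam1 and Mmp2 lie at like levels in both groups.

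Contractile genes and other targets of the factors SRF and YAP, which fibroblasts express strongly, were also measured. Of 19 tested, 4 rose and none fell: Acta2, smooth muscle actin, from 62.4 and 64.0 to 126 and 129 (1.05 ± 0.04), Actg2 from 10.7 and 10.4 to 32.0 and 30.8, Cnn1 from 5.17 and 5.69 to 12.3 and 13.6, and Myl9 from 21.1 and 21.3 to 40.9 and 42.3. In each of these the groups did not overlap. Their means in −F were 4.92 FPKM for Acta2, 0.035 for Actg2, 3.48 for Cnn1 and 10.5 for Myl9, and in NB2i 0.07 FPKM or less. Tagln (0.37 ± 0.04) and Ctgf (0.25 ± 0.04) were higher and Cyr61 lower (−0.43 ± 0.04), all by less than 2-fold.

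ERK drives its own brakes as well as a wave of early transcription factors, and 32 genes of this kind were tested. None rose and 16 fell, and at any fold 28 were lower and none higher; the median log2 fold change was −0.93. The immediate early factor Egr1 had the smallest p of these. Its FPKM was 90.4 and 94.1 in F and 4.0 and 3.54 in F2i (−4.57 ± 0.06, adjusted p = 9.8e-23). Both F2i samples lay far under both F samples. The related factors fell too, Egr2 from 4.71 and 4.4 to 0.78 and 0.54 (−2.74 ± 0.16), and Egr3 from 1.19 and 1.31 to 0.2 and 0.21 (−2.53 ± 0.25). Their mean levels in −F were 8.47 FPKM for Egr1, 0.115 for Egr2 and 0.04 for Egr3.

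Among the brakes of the pathway, Spry4, which dampens receptor signalling to ERK, dropped from 20.3 and 19.8 FPKM to 0.54 and 0.74 (−4.92 ± 0.09, adjusted p = 4.05e-20). The ERK phosphatase gene Dusp6 (chr10:99263231-99267489, mm10) fell from 35.9 and 34.8 to 5.18 and 5.71 (−2.66 ± 0.06, adjusted p = 7.5e-19). Dusp4, another phosphatase of the family, fell from 13.2 and 13.5 to 2.78 and 2.99 (−2.17 ± 0.08). Spred1 fell also. The brakes did not move as one, since Spry2 stood at 77.1 and 74.2 in F and 74.1 and 72.7 in F2i (−0.01 ± 0.04, adjusted p = 0.918). The ETS factors, transcription factors induced by FGF signalling, differed from each other in the same manner. Etv4 (chr11:101769747-101785310) fell from 53.5 and 51.3 to 5.4 and 5.84 (−3.18 ± 0.06, adjusted p = 4.05e-20), whereas Etv5 was at 96.7 and 97.3 in F and 79.8 and 83.5 in F2i (−0.21 ± 0.04, adjusted p = 0.000147). In NB2i the means were 1.59 FPKM for Etv4 and 56.7 for Etv5.

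Of the AP-1 genes, Fosb, Fosl1, Jun and Junb fell. Fosl1 went from 2.36 and 2.21 FPKM to 0.38 and 0.21 (−2.92 ± 0.34). Fos itself was lower by less than 2-fold, at 147 and 144 in F and 77.2 and 81.0 in F2i (−0.84 ± 0.04), and was far from the feeder-free means of 2.69 in −F and 1.62 in NB2i. The growth regulator Myc fell from 7.09 and 7.29 to 1.8 and 2.21 (−1.80 ± 0.11, adjusted p = 1.27e-11), and the G1 cyclin Ccnd1 was lower by less than 2-fold (44.7 and 47.5 against 25.5 and 26.6). The fibroblast marker sum was higher in F2i, and the part of feeder RNA in these falls was not tested.

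Promoter sequences were looked at for letters that ERK-responsive factors are known to read. The CArG box, bound by SRF, was searched by its 10-letter consensus on both strands of the RefSeq windows (GRCm38.p6, from 250 bases before to 50 bases after each start). It was in the windows of 2 of the 22 ERK-list genes that had a window (9.09%), against 1.81% of 27025 genes with one. The 2 genes were Egr2 and Dusp5, both of which fell. No called core gene of the list with a window held the box, so the 250 bases before the start of Dusp5 (chr19:53528895-53529144, plus strand) are shown as the member with a pair of boxes that touch each other, chosen after the matches were seen; capitals mark the boxes.
Dusp5: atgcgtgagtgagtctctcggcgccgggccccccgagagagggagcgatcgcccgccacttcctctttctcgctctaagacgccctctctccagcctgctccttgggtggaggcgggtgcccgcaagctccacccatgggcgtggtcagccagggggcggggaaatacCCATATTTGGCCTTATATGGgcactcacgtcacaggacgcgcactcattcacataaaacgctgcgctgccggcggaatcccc
Dusp5, a nuclear ERK phosphatase, had an FPKM of 17.8 and 17.5 in F and 7.99 and 8.11 in F2i (−1.09 ± 0.10, adjusted p = 3.41e-09), and a mean of 7.78 in −F and 1.25 in NB2i. A match describes the letters of the window and not binding.

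The 20 β-catenin target genes tested moved in the other direction: 7 rose and 2 fell, with a median log2 fold change of 0.45. Axin2 (chr11:108917828-108950783), a scaffold of the β-catenin destruction complex and a feedback target of the pathway, had an FPKM of 3.98 and 4.08 in F and 12.4 and 13.2 in F2i (1.70 ± 0.07, adjusted p = 5.77e-15). Its feeder-free means were 2.39 in −F and 16.1 in NB2i. The transcription factor Sp5, a direct target in many tissues, rose from 1.2 and 1.02 to 3.5 and 3.93 (1.78 ± 0.15, adjusted p = 1.65e-09). Cdx1, a caudal homeobox factor, rose from 4.02 and 4.52 to 9.83 and 10.7 (1.30 ± 0.10). In all 3 genes the groups stood apart. The Wnt-removing enzyme Notum rose from 3.84 and 3.62 to 7.92 and 8.46 (1.17 ± 0.10), the receptor Tnfrsf19 from 1.31 and 1.11 to 3.79 and 3.72 (1.69 ± 0.12), and Lgr5 and Sp8 rose at levels under 1 FPKM.

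Not every classic target followed. T, the mesoderm factor Brachyury, had an FPKM of 0.51 and 0.55 in F and 0.46 and 0.43 in F2i (adjusted p = 0.643). Lef1, which pairs with β-catenin on DNA, was lower by less than 2-fold, at 5.85 and 5.66 against 3.09 and 3.35 (−0.73 ± 0.09, adjusted p = 4.86e-07). Nkd2, an antagonist of Wnt signalling, fell from 1.66 and 1.71 to 0.8 and 0.77, and Rnf43, a ligase that removes Wnt receptors, fell from a mean of 0.25 FPKM to 0.11; with DESeq2, or with any 1 F or F2i sample left out, 1 of these 2 remained called.

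The letters CTTTGAT, a core that TCF and LEF factors recognise, were in the windows of 2 of 13 genes of the list (15.4%) against 4.29% of all 27025 genes. The 2 were Sp5 and Tnfrsf19, which both rose. The 250 bases before the start of Sp5 (chr2:70474673-70474922, plus strand) are shown because Sp5 was the called core gene that held the letters there; capitals mark them.
Sp5: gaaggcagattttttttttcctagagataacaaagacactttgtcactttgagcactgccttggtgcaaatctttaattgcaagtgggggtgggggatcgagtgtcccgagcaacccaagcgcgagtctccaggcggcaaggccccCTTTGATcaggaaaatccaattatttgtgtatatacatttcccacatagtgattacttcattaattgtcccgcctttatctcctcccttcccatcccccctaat
No window of the ERK list held CTTTGAT. The CArG box was in 2 of the 13 β-catenin windows (15.4%), those of Lef1 and Tcf7, neither of which was called. The sequence again describes letters only.

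**Figure D3:**
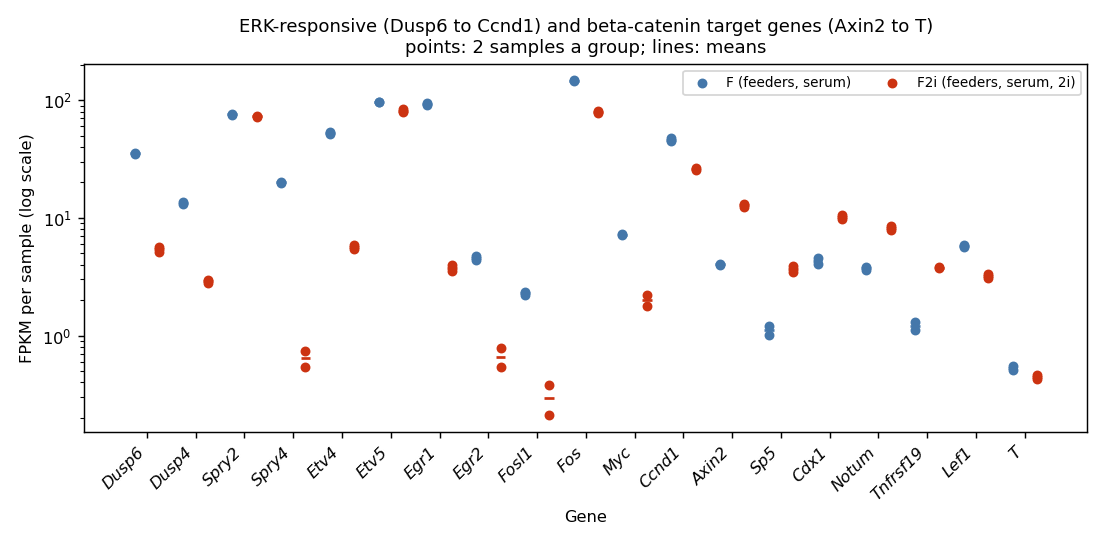
FPKM on a log axis of 12 ERK-responsive genes (Dusp6 to Ccnd1) and 7 β-catenin target genes (Axin2 to T) in the 2 F samples (blue) and the 2 F2i samples (red), with lines at the group means. Spry4, Egr1 and Etv4 show wide gaps with F2i lower, Spry2 and T show none, and Axin2, Sp5, Cdx1, Notum and Tnfrsf19 sit higher in F2i.

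The mRNAs of the inhibited pathways' own components stayed within 2-fold. Of 21 tested, none rose and none fell by the 2-fold rule, and the log2 fold changes ran from −0.86 to 0.79. At any fold, 7 were higher and 6 lower. The ERK gene Mapk3 was the lowest by fold, at 56.28 and 55.45 FPKM in F and 28.92 and 30.91 in F2i (−0.86 ± 0.05). Btrc was the highest (0.79 ± 0.05). The targets of PD0325901 were at 56.8 and 56.8 FPKM in F and 64.1 and 68.3 in F2i for Map2k1 (0.26 ± 0.04) and at 33.8 and 33.4 against 29.1 and 31.3 for Map2k2 (−0.11 ± 0.05, adjusted p = 0.0578). Of the targets of CHIR99021, Gsk3b was at 10.9 and 11.4 against 15.5 and 14.8 (0.48 ± 0.05) and Gsk3a at 57.0 and 59.1 against 51.4 and 53.6 (−0.11 ± 0.04, adjusted p = 0.0466). Ctnnb1, which encodes β-catenin, was at 207 and 213 against 203 and 200 (adjusted p = 0.603), and its partner Tcf7l1 was higher by less than 2-fold (36.1 and 37.5 against 56.9 and 57.7, 0.68 ± 0.04). These are mRNA levels and say nothing of kinase activity.

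Factors of the naive state were already high on feeders and most were higher still with 2i. Of 15 genes tested, 5 rose and 1 fell, 13 were higher at any fold, and the median log2 fold change was 0.57. Tbx3 (chr5:119670534-119684724), a T-box factor downstream of LIF signalling, had an FPKM of 26.6 and 27.3 in F and 104 and 106 in F2i (2.00 ± 0.04, adjusted p = 2.36e-19). Tfcp2l1, a factor through which both LIF and GSK3 inhibition sustain self-renewal, rose from 42.6 and 43.3 to 135 and 121 (1.62 ± 0.05). Prdm14, a repressor of FGF signalling and of the de novo methyltransferases, rose from 6.37 and 6.51 to 15.4 and 15.1 (1.28 ± 0.07, adjusted p = 8.6e-13). The nuclear receptor Nr5a2 (12.3 and 12.7 against 26.4 and 25.2) and the Akt cofactor Tcl1 (34.9 and 33.6 against 68.0 and 68.3) rose by close to the threshold. In each the F2i samples were above the F samples.

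Nanog, the core naive factor, was higher by less than 2-fold, at 271 and 269 in F and 465 and 482 in F2i (0.84 ± 0.04, adjusted p = 1.17e-13). The same held for Zfp42 (0.62 ± 0.05), Klf2 (0.37 ± 0.05), Klf4 (0.33 ± 0.04) and Esrrb (0.19 ± 0.04). For Nanog, Klf2, Klf4 and Tbx3 the F2i levels lay above the NB2i means, which were 299, 156, 145 and 65.5 FPKM, but this difference was not tested. Gbx2, a homeobox factor also counted in the list, fell from 12.5 and 13.5 to 4.81 and 5.01 (−1.37 ± 0.08). Both feeder-free ESC conditions expressed all of these genes, and the part of feeder RNA in their differences between F and F2i was not tested.

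Genes shared by naive and primed pluripotent cells were mostly at like levels or lower. Pou5f1 (Oct4) was at 583 and 595 FPKM in F and 602 and 620 in F2i (0.09 ± 0.04, adjusted p = 0.0796), and Sox2 was at 231 and 246 against 236 and 244 (adjusted p = 0.347), with overlapping groups. Of 11 genes tested, none rose and 2 fell. Utf1, a chromatin-bound factor of ESCs, fell from 374 and 386 to 79.4 and 83.7 (−2.18 ± 0.05, adjusted p = 3.8e-19). Lin28a, which blocks let-7 maturation, fell from 119 and 122 to 56.4 and 56.4 (−1.06 ± 0.04).

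**Figure D4:**
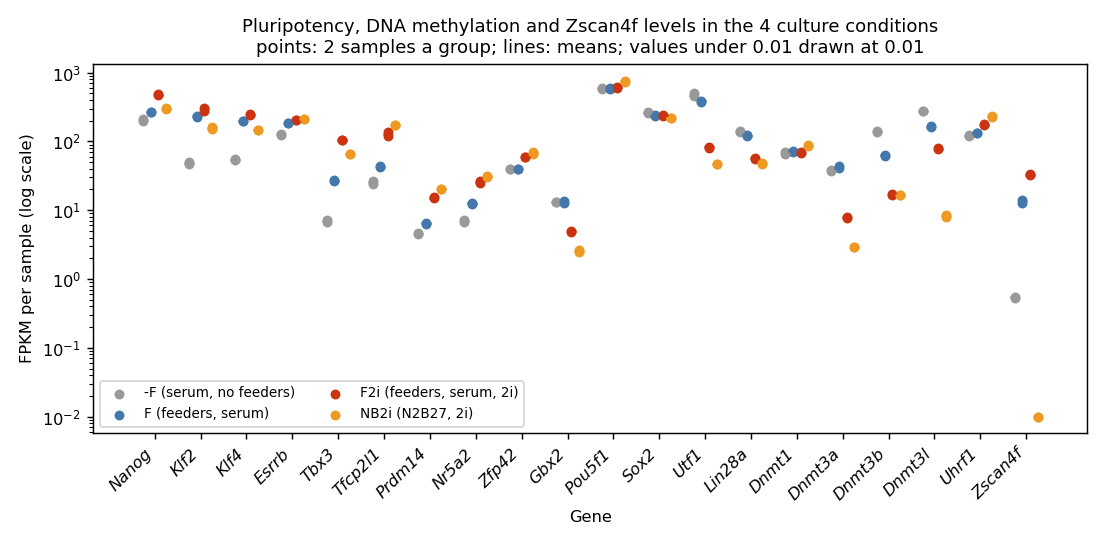
FPKM on a log axis of 20 genes, those of pluripotency and DNA methylation and Zscan4f, in −F (grey), F (blue), F2i (red) and NB2i (orange), 2 points per condition, with values under 0.01 drawn at 0.01. Tbx3, Tfcp2l1 and Prdm14 are higher in F2i than in F, Utf1, Dnmt3a, Dnmt3b and Dnmt3l are lower, Pou5f1, Sox2 and Dnmt1 are level, and Zscan4f is high in F and F2i only.

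Genes that mark exit from the naive state, in the formative and primed epiblast, were mostly lower. Of 22 tested, 11 fell and 2 rose, with a median log2 fold change of −1.02. Pou3f1 (Oct6), an early epiblast POU factor, fell from 9.12 and 9.74 FPKM to 1.9 and 2.25 (−2.14 ± 0.10, adjusted p = 1.85e-13). Tcf15, a bHLH factor of cells primed to differentiate, fell from 28.8 and 27.6 to 3.16 and 3.33 (−3.08 ± 0.11). The tight junction gene Cldn6 fell from 50.04 and 49.1 to 6.44 and 7.18 (−2.82 ± 0.07). In none of these did the groups overlap. Fgf5, the classic primed marker, was low in all samples and fell from 0.45 and 0.62 to 0.11 and 0.12 (−2.10 ± 0.44, adjusted p = 0.000338). Wnt8a had 68 summed counts in F and 3 in F2i, a ratio of 22.7 with a 95% exact counting interval from 7.43 to 113. Otx2, which directs the enhancers of the formative state, was lower by less than 2-fold (5.6 and 5.86 against 3.41 and 3.98). Without feeders its mean was higher in NB2i (17.2 FPKM) than in −F (12.9). The pair that rose were Zic2, a zinc finger factor (11.7 and 11.6 against 30.1 and 29.5, 1.39 ± 0.06), and the forkhead factor Foxd3 (6.47 and 6.26 against 12.5 and 13.2, 1.05 ± 0.08). Their NB2i means were 13.6 and 6.23 FPKM, below F2i.

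The enzymes that place new DNA methylation fell, and those that maintain it did not. Dnmt3a (chr12:3801559-3914443) had an FPKM of 41.4 and 43.2 in F and 7.91 and 7.75 in F2i (−2.35 ± 0.05, adjusted p = 6.16e-20). Dnmt3b fell from 62.2 and 62.4 to 16.8 and 17.2 (−1.85 ± 0.05, adjusted p = 1.19e-18), and their catalytically inactive partner Dnmt3l from 166 and 162 to 77.6 and 79.6 (−1.02 ± 0.04). All 3 showed F above F2i in every sample, and the fall of Dnmt3l was no longer called when the fold itself was tested against 2 (glmTreat). The maintenance methyltransferase Dnmt1 was at 70.8 and 71.8 in F and 69.8 and 68.0 in F2i (adjusted p = 0.849). Uhrf1, which brings Dnmt1 to replicating DNA, was higher by less than 2-fold (131 and 133 against 171 and 177, 0.44 ± 0.04). Of the enzymes that oxidise methylcytosine, Tet1 was lower (46.4 and 47.5 against 29.4 and 26.2, −0.72 ± 0.05) and Tet2 higher (16.5 and 16.9 against 22.7 and 20.9, 0.42 ± 0.05), both by less than 2-fold. Over the 19 genes tested 3 fell and 1, Prdm14, rose. Dnmt3l stood at a mean of 8.28 FPKM in NB2i, well under its F2i level, while Dnmt3b was at 16.5 FPKM there.

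Germline genes, many of which are silenced by promoter methylation in somatic cells, moved both ways, with 4 of 31 tested rising and 7 falling (median −0.11). Dazl, an RNA-binding regulator of germ cells, rose from 4.41 and 4.7 FPKM to 14.9 and 14.6 (1.74 ± 0.07, adjusted p = 1.74e-14). Hormad1, a protein of meiotic chromosome axes, rose from 8.99 and 9.95 to 25.01 and 22.1 (1.38 ± 0.08), and the testis tubulin Tuba3a from 8.34 and 8.58 to 26.96 and 28.3 (1.75 ± 0.07). The germ cell helicase Ddx4 fell from 14.7 and 16.3 to 6.92 and 7.15 (−1.10 ± 0.07), and the piRNA pathway genes Piwil2 (6.51 and 6.94 against 2.99 and 3.01) and Tdrkh (2.2 and 1.97 against 0.93 and 0.83) fell with it. Mael (adjusted p = 0.413) did not pass the test, and Sycp3, a synaptonemal complex gene, was lower by less than 2-fold (15.5 and 15.9 against 9.67 and 10.8). The letters CACGTG, an E-box, were in 12 of 27 germline windows (44.4%), against 8.09% of all and 11.4% of tested genes with a window. They were in 1 of the 4 that rose and in 2 of 6 with a window that fell.

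Genes of the 2-cell embryo (2C genes), which a small share of ESCs switches on in turn, rose on feeders with 2i. Of 27 tested 14 rose and none fell, 21 were higher at any fold, and the median log2 fold change was 1.06. Reads shared by near-identical copies are divided by estimate among these genes, so families were also summed. The 5 Zscan4 genes, which include Zscan4f (chr7:11397915-11402318) and act in telomere elongation by recombination, had 1154 and 1208 expected counts in F and 2854 and 2851 in F2i (1.32 ± 0.06, adjusted p = 1.3e-14). Both F2i samples were above both F samples. The sums were 55 and 44 in −F and 5 and 1 in NB2i. Zscan4f alone rose from 14.0 and 12.9 FPKM to 32.0 and 33.3 (1.32 ± 0.07). The 2 Tcstv genes summed rose from 50.1 and 53.4 counts to 106 and 128 (1.24 ± 0.19, adjusted p = 7.43e-06).

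Tmem92, which has no such copies in the list, rose from 1.58 and 1.74 FPKM to 6.02 and 5.86 (1.87 ± 0.13). Dux, the factor that can start the 2C programme, rose at levels near 1 FPKM, and Gm5662 and Gm4027 rose with uncertain division of reads. The deubiquitinase family Usp17l, summed over 5 genes, was higher by less than 2-fold, from 276 and 268 counts to 389 and 356 (0.50 ± 0.09), and Pramef25 likewise (2.01 and 1.98 FPKM against 3.34 and 4.02). Tmem92 had a mean of 0.085 FPKM in −F and 0 in NB2i. Of the 14 genes that rose, 7 were lower in both NB2i samples than in both −F samples, against 45.3% of all genes tested. The 14 genes were at low levels in both feeder-free groups, so this count does not set them apart from genes in general. By DESeq2 9 of the list were called, and by glmTreat 7. The fibroblast marker sum (256 and 269 FPKM in F, 720 and 700 in F2i) moved in the same direction, and its part in the rise was not tested.

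Telomere genes stayed within 2-fold. Of 28 tested none rose and none fell, and their log2 fold changes lay between −0.45 and 0.61. Tert, the telomerase reverse transcriptase, was at 5.75 and 5.79 FPKM in F and 5.42 and 5.31 in F2i (adjusted p = 0.532). Terf1, which binds the telomere repeats, was the highest of the list by fold, at 32.6 and 32.6 against 49.1 and 47.6 (0.61 ± 0.05), and Rad50, of the break-repair complex, the lowest (18.0 and 17.4 against 13.2 and 12.2). Dmc1 was at 10.04 and 9.98 against 9.08 and 8.53 (adjusted p = 0.0799). Spo11 was listed in none of the 4 samples. Of the enzymes that make SSEA-1, a surface sugar of ESCs, Fut9 was at 5.18 and 5.27 against 4.83 and 4.58 (adjusted p = 0.0801), whereas Fut4 fell from 0.4 and 0.5 to 0.08 and 0.07.

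Of 16 ligands, receptors and carriers of the FGF family tested, 8 fell and 2 rose (median −1.09). The ligand Fgf4 itself was higher by less than 2-fold, at 78.6 and 82.4 FPKM in F and 115 and 117 in F2i (0.56 ± 0.04). The receptor Fgfr2 fell from 5.87 and 6.38 to 1.76 and 1.72 (−1.77 ± 0.08, adjusted p = 1.12e-13), and Fgfr3 fell from 1.94 and 1.73 to 0.51 and 0.69. Fgfr1, the main receptor of these cells by FPKM, was at 22.9 and 21.3 against 20.5 and 20.4 (adjusted p = 0.121). The carrier protein Fgfbp1 fell from 12.0 and 11.3 to 2.02 and 1.91 (−2.53 ± 0.13) and the ligand Fgf15 from 1.42 and 1.59 to 0.22 and 0.16. Fgf10 (1.27 and 1.12 against 3.35 and 3.38) and Fgf3 (0.54 and 0.61 against 1.37 and 1.03) rose, the latter not with DESeq2 or without F2i replicate 1.

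In the Nodal pathway the 2 Lefty genes, neighbours on chromosome 1 that encode secreted Nodal inhibitors, parted. Lefty1 (chr1:180935022-180938401) fell from 90.2 and 90.3 FPKM to 12.6 and 12.9 (−2.79 ± 0.05, adjusted p = 4.05e-20). Lefty2 (chr1:180893108-180899107) was at 39.4 and 38.8 in F and 53.9 and 54.2 in F2i (0.50 ± 0.04, adjusted p = 1.78e-09). Nodal was also higher by less than 2-fold (32.7 and 32.5 against 48.2 and 50.7). The SMAD corepressor Skil fell from 27.7 and 29.6 to 12.4 and 12.2, and the activin antagonist Fst rose from 2.33 and 2.69 to 5.47 and 6.32. Over 19 genes tested 2 fell and 1 rose, where 7.00% of all genes tested fell and 6.44% rose.

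Of the 20 BMP pathway genes tested 2 fell and 1 rose, against 7.00% and 6.44% of all genes tested. The ligand Bmp4 fell from 7.69 and 8.04 FPKM to 1.06 and 1.45 (−2.63 ± 0.14, adjusted p = 5.65e-13), and Bmp8b fell from 1.1 and 1.2 to 0.27 and 0.18. Of the Id genes, targets of BMP signalling that block bHLH factors, Id1 was lower by less than 2-fold (11.4 and 12.0 against 5.55 and 6.93), Id2 did not pass the test (25.3 and 23.8 against 25.6 and 25.9, adjusted p = 0.209) and Id3 was higher by less than 2-fold (32.6 and 31.4 against 39.6 and 40.5); the means of Id3 were 13.01 in −F and 1.98 in NB2i. The BMP antagonist Nog rose at under 1 FPKM. Fstl1, a secreted glycoprotein also made by fibroblasts, was at 51.5 and 51.0 in F and 65.6 and 66.0 in F2i (0.40 ± 0.04), and its means were 25.1 in −F and 17.0 in NB2i.

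LIF was present in both groups. Stat3, its transcription factor, was at 27.5 and 26.3 FPKM in F and 28.3 and 28.5 in F2i (0.11 ± 0.04, adjusted p = 0.0291), a difference that did not pass with DESeq2, with limma, or without F replicate 2, F2i replicate 1 or F2i replicate 2. The LIF receptor gene Lifr (−0.52 ± 0.06) and the feedback inhibitor Socs3 were lower by less than 2-fold (Socs3 at 53.0 and 55.6 against 27.8 and 28.7, −0.91 ± 0.05). By FPKM, Lifr differed less (11.6 and 12.75 against 11.26 and 10.18) than by expected counts (1861 and 2059 against 1374 and 1259). Of 15 genes tested 2 fell, Socs2 (47.6 and 49.3 against 22.5 and 24.0) and the kinase gene Pim2 (19.9 and 19.5 against 8.25 and 8.75), and none rose.

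**Figure D5:**
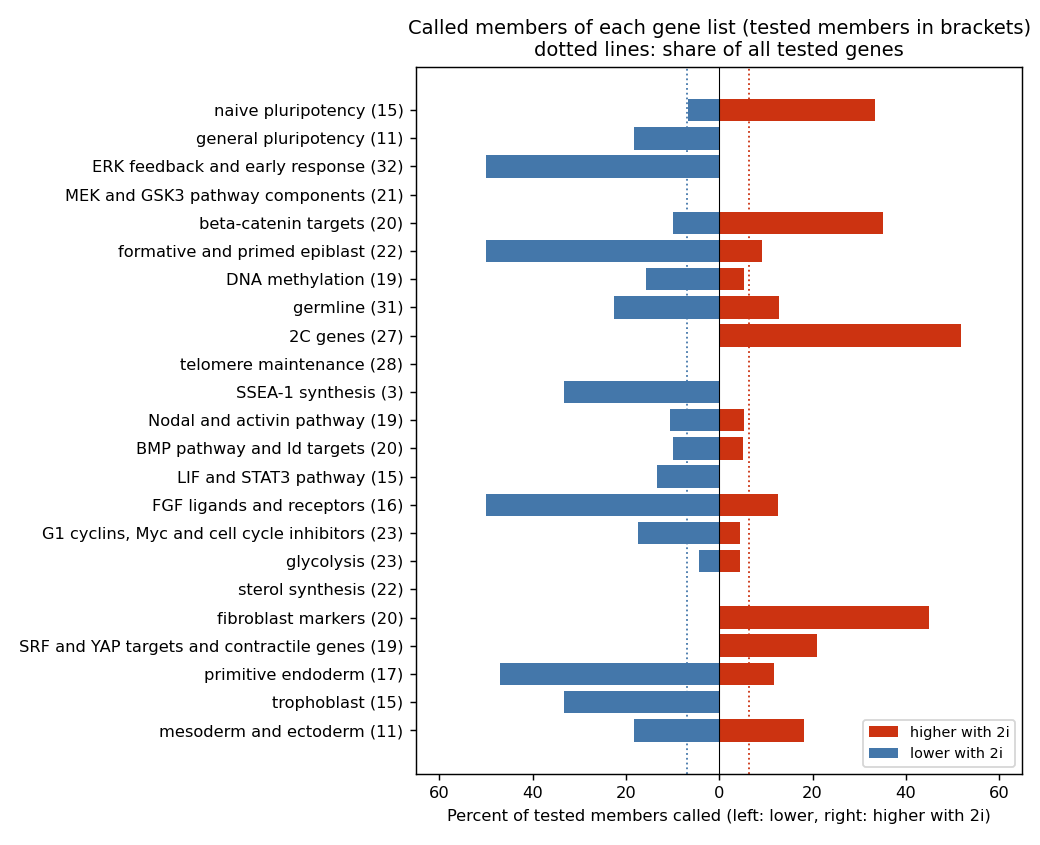
Share of the tested members of each of the 23 gene lists that rose (red, to the right) or fell (blue, to the left), in percent, with the number of tested members in brackets. Dotted lines mark the shares over all genes tested, 6.44% and 7.00%; the ERK, formative and primed, FGF and primitive endoderm lists reach furthest left, and the 2C, fibroblast, β-catenin and naive lists furthest right.

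Cell cycle genes moved in single members, with 4 of 23 tested falling and 1 rising (median 0.09). Mycn, the Myc family member most abundant in these cells by FPKM, fell from 120 and 128 to 43.5 and 44.5 (−1.46 ± 0.04, adjusted p = 5.32e-17). Ccne1, which drives entry into S phase, fell from 123 and 117 to 56.1 and 56.6 (−1.05 ± 0.05). The CDK inhibitor Cdkn1a (p21) rose from 63.1 and 63.5 to 129 and 129 (1.07 ± 0.05), and Cdkn1c (p57), an imprinted inhibitor, fell from 12.6 and 13.2 to 2.57 and 2.91 (−2.18 ± 0.10). Ccnd3 was at 152 and 150 against 159 and 171 (0.17 ± 0.05).

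Glycolysis and sterol synthesis changed in few genes. Of 23 glycolysis genes 1 rose and 1 fell, where 6.44% of all genes tested rose and 7.00% fell, so these counts do not set the list apart. Pdk1, the kinase that keeps pyruvate out of mitochondria, fell from 45.6 and 46.1 FPKM to 8.37 and 8.58 (−2.40 ± 0.05, adjusted p = 4.05e-20). Hexokinase Hk1 rose from 21.7 and 21.4 to 41.2 and 42.8, at the 2-fold threshold (1.00 ± 0.05), while Hk2 was at 65.9 and 65.9 against 66.7 and 64.9 (adjusted p = 0.511) and Ldha at 626 and 641 against 574 and 588 (adjusted p = 0.0705). None of 22 sterol genes rose or fell, and Hmgcs1, an early enzyme of the sterol pathway, was lower by less than 2-fold (−0.36 ± 0.04).

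Lineage markers, low in all 4 samples for the most part, fell more often than they rose. In the primitive endoderm list 8 of 17 tested fell and 2 rose (median −0.999). Gata4 and Gata6, the factors that set this lineage, fell from 3.02 and 3.45 FPKM to 1.23 and 1.2 (−1.37 ± 0.16) and from 1.98 and 1.83 to 0.65 and 0.67 (−1.49 ± 0.18). The endocytic receptors of the visceral endoderm fell further, Cubn from 1.98 and 2.24 to 0.05 and 0.02 (−5.80 ± 0.20), Lrp2 from 3.61 and 3.98 to 1.3 and 1.1, and their partner Amn from 1.89 and 1.75 to 0.59 and 0.52. Sox17 did not pass the test (0.22 and 0.34 against 0.3 and 0.28, adjusted p = 0.854). Sparc, a matrix protein that fibroblasts also make, rose from 160 and 161 to 450 and 463 (1.55 ± 0.04), and its mean was 97.2 in −F and 457 in NB2i.

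In the trophoblast list 5 of 15 tested fell and none rose. The keratin genes Krt8 and Krt18, whose products pair into the simple epithelial filament, fell together, Krt8 from 31.5 and 30.4 FPKM to 5.52 and 6.16 (−2.37 ± 0.07, adjusted p = 8.68e-17) and Krt18 from 37.2 and 36.7 to 7.3 and 8.28 (−2.21 ± 0.07). The mean of Krt8 was 59.4 in −F and 28.7 in NB2i. Hand1 fell from 3.02 and 3.24 to 0.1 and 0.23 (−4.14 ± 0.28). Cdx2, the defining factor, was at 0.21 and 0.2 against 0.35 and 0.39 (adjusted p = 0.0865). Of 11 mesoderm and ectoderm genes tested 2 rose and 2 fell, among them the organizer gene Gsc, up from 0.76 and 0.58 to 2.85 and 3.24 (2.21 ± 0.26), and the eye and neural gene Pax6, down from 1.56 and 1.42 to 0.04 and 0.14 (−4.06 ± 0.30). Mixl1 (adjusted p = 0.624) and Nes (adjusted p = 0.065) did not pass the test, and Sox1 was lower by less than 2-fold (−0.77 ± 0.15).

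The 10 largest rises among genes of at least 1 FPKM in F2i were mostly of genes with almost no reads in F. Gm4340, Cd3g and Xlr4a were at 0 in both F samples and were at least 30.1-fold, 14.8-fold and 9.02-fold higher against a floor of 3 counts per library. Gm4340 belongs to a near-identical family and differed between replicates (149 and 29.6 expected counts), so its level is uncertain. Xlr4a also differed between replicates (18.0 and 35.8 expected counts). Cd3g and its neighbour Cd3d on chromosome 9 encode CD3 chains of the T cell receptor complex. They had 2.13 and 2.2 FPKM and 1.35 and 1.2 FPKM in F2i, and their NB2i means were 3.12 and 1.23. Kiss1, the kisspeptin gene, had 1 count in F and 77 in F2i, a ratio of 77.0 (95% exact counting interval 13.4 to 3080). Fxyd2, a subunit of the sodium pump, had 1 and 40 counts (ratio 40.0, interval 6.78 to 1620). Trpm1, a cation channel gene and a target of the melanocyte factor Mitf, rose from 0.25 and 0.3 FPKM to 4.75 and 4.2 (4.08 ± 0.16) and had a mean of 29.5 in NB2i. Gm13128 rose too. By contrast Stk33 (0.04 and 0.12 against 1.75 and 1.86) and the secreted C1q family gene C1qtnf3 (0.13 and 0.06 against 1.82 and 1.76) had NB2i means of 0 and 0.04 FPKM and −F means of 0.01 and 0.

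Among the 10 largest falls, Car4, a membrane-bound carbonic anhydrase, went from 21.3 and 19.9 FPKM to 0.27 and 0.26 (−6.21 ± 0.16, adjusted p = 2.76e-18), with a mean of 35.6 in −F and 0.04 in NB2i. Gna14, a G protein subunit gene, had 310 counts in F and 2 in F2i (ratio 155, 95% exact counting interval 42.5 to 1290). The uncharacterised 2610528J11Rik fell from 9 and 9.25 to 0.06 and 0.27 (−5.69 ± 0.28). Fndc3c1, Glyatl3, Bnipl, Cubn and Spry4 made up most of the rest, with log2 fold changes from −5.80 to −4.91. Gm7367 was listed in neither F2i sample and was at least 13.1-fold lower. Its level is uncertain, since its expected counts in F were not whole (36.29 and 42.97) and its −F replicates differed (0 and 1.37 FPKM). The pseudogene Apoo-ps was at least 4.01-fold lower; its reads may be shared with its parent gene, and DESeq2 did not call it.

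The −F and NB2i samples enter neither group, so they hold a separate view of these genes with and without 2i. Feeders are absent from both, but the medium (knockout DMEM in −F, N2B27 in NB2i), serum and the plate coating also differ. Both NB2i samples were above both −F samples for 38.5% of all genes tested and below for 45.3%. Of the 985 genes that rose on feeders, 711 (72.2%) were higher in NB2i than in −F and 137 (13.9%) lower. Of the 1070 that fell on feeders, 969 (90.6%) were lower in NB2i and 48 (4.49%) higher. All 16 ERK-list genes that fell were also lower in NB2i than in −F, as were 11 of 11 formative and primed genes, 8 of 8 FGF genes and 3 of 3 DNA methylation genes. Of the genes that rose, 5 of 5 naive genes and 6 of 7 β-catenin targets were higher in NB2i than in −F. In the 2C, fibroblast and contractile lists, 0 of their 14, 9 and 4 genes that rose on feeders were higher in NB2i than in −F. Summed FPKM of the 2C list was 7.19 and 6.47 in −F and 4.1 and 4.58 in NB2i. For the fibroblast list it was 24.2 and 23.6 against 7.03 and 6.04. The 4 contractile genes had NB2i means of 0.07 FPKM or less. With levels this low without feeders, these counts cannot show whether such genes respond to 2i in another way. Other lists were mixed. Of the 8 primitive endoderm genes that fell, 5 were lower and 2 higher in NB2i, of the 5 trophoblast genes that fell, 4 were lower and 1 higher, and of the 4 germline genes that rose, 2 were higher and 2 lower. These are counts of non-overlapping FPKM values without a test.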

How the data were processed

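The authors sequenced poly-A RNA of 8 samples of N33 ESCs (BGISEQ-500, single-end reads of 50 bases), aligned them with Bowtie2 (mm10) and estimated gene levels by RSEM. They deposited for each sample, unpooled, the genes above 0 with an expected count (RSEM's estimate of a gene's reads, not normalized) and an FPKM (that estimate per transcript length and depth). The library preparation is not stated to keep strand, so overlapping and antisense genes cannot be told apart. Samples were grouped by the culture condition in the labels. Nothing states that replicates were separate derivations, so p-values measure the spread between these samples.

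Expected counts were rounded and fitted in edgeR 4.0.16 (R 4.3.3; TMM factors 0.9774 to 1.0284; glmQLFit, glmQLFTest) with all 8 samples, the condition as factor and 4 residual degrees of freedom, for genes reaching 10 counts in 2 or more samples. Benjamini-Hochberg adjustment ran over all 15287 genes. SEs were derived from the estimate and its F statistic. Fitted folds of genes near 0 depend on edgeR's prior count; intervals and floors of 3 counts cover counting error only. The scripts were tested on simulated counts. Alternatives were DESeq2 1.42.0, its size factors, other count filters, F and F2i samples alone, a replicate block, each sample left out, adjusted p under 0.01, glmTreat, and limma 3.58.1 with a pseudocount of 1 or 0.1 on log2 FPKM, for genes of at least 0.5 FPKM in 2 samples. Replicate numbers were not treated as pairing.

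The gene lists (456 genes in 23 lists, 452 found in the files) and members were chosen with earlier results of these data known. Named were the 10 largest rises and falls of at least 1 FPKM with separate groups. Named too were core genes of each list and up to 4 further called members each way. Other list members are named where they were called, where a sequence is shown or where they had the lowest or highest fold of a list. Coordinates and promoter windows are RefSeq's for GRCm38.p6, counted from 1, matched by gene ID. Sequences of genes on chromosome 18 are not shown.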

Additional observations from a re-analysis of the deposited data

How the results depend on the processing

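The counts of 985 genes higher and 1070 lower held within 1.5 times under most alternatives: DESeq2 called 820 and 904, and an edgeR fit with a replicate block 981 and 1063. They were smaller with at least 10 counts required in every sample (528 and 582, of 12730 genes tested), with glmTreat (462 and 519) and with limma on log2(FPKM + 1) (355 and 376), a scale that shrinks folds at low FPKM. Leaving out 1 sample gave 874 to 942 higher and 992 to 1060 lower. Restricting to genes of at least 0.5 FPKM in a feeder-free sample, an alternative chosen after the data were seen, gave 701 and 887. Replicate deviations from the group means correlated between F and F2i at only 0.0545, so replicate numbers were not taken as pairs; of the named genes only Gsk3a lost its adjusted p under the block. Of 2405 values of named genes and family sums under the alternatives, 2323 kept direction and side of the threshold, 72 lost it, 10 gained it and 0 changed direction. Nanos3, Dpep3 and Fgf3, all low, were among those that lost it with 1 sample left out. With 10 counts required in every sample 0 of the 2C genes and 3 fibroblast markers were called, since these are near 0 in feeder-free samples.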

Other observations

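The 3 gene groups below were assembled after their values were seen and are described without a test of the group; over all genes tested 6.44% rose and 7.00% fell. Of 34 epithelial junction genes tested, 15 fell and 2 rose, with a median log2 fold change of −0.80. Epcam, an epithelial adhesion molecule, fell from 134 and 132 FPKM to 35.0 and 34.5 (−1.90 ± 0.04), Esrp1, an epithelial splicing factor, from 19.35 and 19.11 to 1.42 and 1.59 (−3.64 ± 0.08), and the gap junction gene Gja1 from 86.8 and 92.2 to 22.7 and 22.6 (−1.94 ± 0.05). In each, both F samples were above both F2i samples. Cdh1, the E-cadherin gene, was not among them (log2 fold change 0.21).

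Imprinted genes moved both ways, with 9 of 37 tested falling and 4 rising (median log2 fold change 0.04). Peg10, a retrotransposon-derived gene needed by the placenta, fell from 73.3 and 80.2 FPKM to 7.03 and 6.65 (−3.45 ± 0.05), Phlda2, a growth restrictor, from 64.9 and 63.3 to 14.1 and 14.5 (−2.12 ± 0.08), and Mest from 25.01 and 25.9 to 6.44 and 6.69 (−1.91 ± 0.07). Plagl1, a zinc finger factor, rose from 2.34 and 2.22 to 18.6 and 16.5 (2.98 ± 0.07). Igf2 and H19, which share a control region, were within 2-fold (log2 fold changes 0.27 and 0.28). Among 29 genes of amino acid supply and its stress response 5 rose and 2 fell (median 0.10), with the asparagine synthetase gene Asns up from 204 and 203 to 470 and 480 (1.26 ± 0.04) and Cth, of cysteine synthesis, from 32.3 and 33.6 to 87.0 and 89.3 (1.46 ± 0.05), while the stress factor Atf4 was level (−0.02).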
